A study of Mus musculus with 98 samples.

Results

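The splicing factors and RNA-binding hnRNPs described here are the probe sets of a mouse expression array whose single gene symbol starts with Srsf, Snrp, Hnrnp, Sf3a, Sf3b or Prpf. The rule found 138 of 22626 probe sets, which stand for 54 genes. They comprise 28 probe sets of 9 SR protein genes, 15 of 8 snRNP protein genes, 50 of 18 hnRNP genes, 22 of 9 genes for SF3a and SF3b subunits, and 23 of 10 PRPF genes. A further 14 probe sets that carry a member's name beside other symbols were not counted as members, so that Snrpd1, Snrpd2 or Hnrnpa3, for example, is not described. The rule uses gene symbols and no measured value, but the members were chosen with earlier results of these data known. Of the 138 probe sets, 110 (52 genes) had a mean intensity above the 30th percentile of the blood arrays and were tested there, and 129 (54 genes) were tested in spleen. Hnrnph3 and Snrpa1 were tested in spleen but not in blood, and 8 probe sets were tested in neither tissue.

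The 98 arrays came from leukocytes of blood (64 arrays) and from spleen (34 arrays) of mice in 3 injury models: burn, infusion of lipopolysaccharide (LPS, the outer membrane component of Gram-negative bacteria) and trauma-hemorrhage (TH). Each array title carries a code, c or x, which the labels do not explain, and every comparison below is x minus c as coded. In blood a second letter, E or A, is given by the sample descriptions as the injury (E) or the sham procedure (A), and both letters occur with both codes, so x minus c was averaged over E and A. The calls lay with the code and not with that letter: in burn, LPS and TH blood x minus c called 2857, 4160 and 8203 of 15838 probe sets, and E minus A called 0, 0 and 3. The arrays are therefore named by letter and code alone, and no difference below is read as that of injury from sham. All spleen titles carry E, and x and c differed there too. By the descriptions, the burn spleen arrays hold leukocytes from spleen, and the LPS and TH spleen arrays spleen. The x and c arrays numbered 9 and 11 in burn blood, 10 and 12 in LPS blood, 11 and 11 in TH blood, 6 and 5 in burn spleen, 6 and 6 in LPS spleen, and 5 and 6 in TH spleen. Strain, age and sex are not given. The labels do not tie arrays to separate animals. The spread that p-values rest on is thus that between arrays and may be technical.

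Pre-mRNA splicing removes introns in the spliceosome, a machine built from small nuclear ribonucleoproteins (snRNPs) that assembles anew on each intron. The Snrp genes encode the Sm ring and other proteins of the snRNPs, SF3a and SF3b are the parts of the U2 snRNP that hold the branch point, and many PRPF proteins belong to the tri-snRNP and the catalytic stages, while Prpf39 and Prpf40b are associated with the U1 snRNP, which binds the 5′ splice site. SR proteins (Srsf) bind exons through RNA recognition motifs and mostly favour their inclusion, and hnRNPs coat nascent RNA and often oppose inclusion. Many SR protein and hnRNP genes are known to give more than one transcript form, including forms with a poison exon or a retained intron that are degraded or held in the nucleus. In leukocytes splicing of receptors such as CD45 changes with activation, and Hnrnpll is known as a regulator of that switch in T cells.

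The promoters of 4 members on which the results below turn are shown for context: Snrpb2 and Srsf1, with the largest positive differences in TH blood, Sf3b6, whose probe sets moved apart there, and Srsf6, with the largest difference of any member. Each line gives the 250 bases before the annotated start, 5′ to 3′ on the gene's strand, from RefSeq (GRCm38.p6), at chr2:143062819-143063068, chr11:88047123-88047372, chr12:4817358-4817607 and chr2:162931258-162931507, all on the plus strand. Capitals mark matches, on either strand, to 7 motifs. These were CGGAAG as the core of sites for ETS factors, GGGCGG as the GC box that Sp1-type factors bind, CCAAT as the box of that name, CACGTG as the E box, TATAAA as the TATA box, TGACGTCA as the cyclic AMP response element (CRE), and an NRF1-type motif in which an unspecified pair of bases lies between GCGC and a second copy of it. The ETS core and the GC box can overlap by their shared bases.
Snrpb2: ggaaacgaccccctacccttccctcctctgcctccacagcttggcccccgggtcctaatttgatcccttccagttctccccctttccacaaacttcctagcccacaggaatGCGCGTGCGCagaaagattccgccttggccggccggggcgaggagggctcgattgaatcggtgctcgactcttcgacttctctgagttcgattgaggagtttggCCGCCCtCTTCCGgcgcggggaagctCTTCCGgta
Srsf1: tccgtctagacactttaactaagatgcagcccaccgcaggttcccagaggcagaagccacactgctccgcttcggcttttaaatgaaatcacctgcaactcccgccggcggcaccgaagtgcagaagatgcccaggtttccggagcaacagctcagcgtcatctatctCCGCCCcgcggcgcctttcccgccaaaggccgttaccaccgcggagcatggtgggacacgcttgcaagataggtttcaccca
Sf3b6: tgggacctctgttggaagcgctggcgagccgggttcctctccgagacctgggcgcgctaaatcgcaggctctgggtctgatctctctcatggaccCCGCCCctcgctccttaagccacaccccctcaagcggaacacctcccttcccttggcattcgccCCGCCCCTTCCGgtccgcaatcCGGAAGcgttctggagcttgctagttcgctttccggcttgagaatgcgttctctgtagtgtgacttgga
Srsf6: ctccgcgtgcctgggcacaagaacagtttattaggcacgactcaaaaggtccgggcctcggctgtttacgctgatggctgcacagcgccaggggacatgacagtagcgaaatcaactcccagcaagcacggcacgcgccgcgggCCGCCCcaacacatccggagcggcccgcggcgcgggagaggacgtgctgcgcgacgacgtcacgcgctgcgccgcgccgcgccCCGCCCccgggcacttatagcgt
Of the 54 genes, 49 had at least 1 window in the table, with 68 windows in all; Hnrnpll, Hnrnpul2, Sf3b4, Sf3b5 and Snrpb had none. The ETS core was present in 47.1% of the 68 member windows and in 13.6% of all 32851 windows of the same length. The GC box was present in 61.8% and 32.7%, CCAAT in 47.1% and 33.8%, and the NRF1 type in 23.5% and 4.98%. TATAAA was present in 7.35% of the member windows and in 12.4% of all windows, CACGTG in 7.35% and 6.02%, and the CRE in 1.47% and 1.55%. The median GC content was 59.6% in the member windows and 52.4% in all windows, and these shares describe letters, not bound sites. Snrpb2 and Sf3b6 held 2 ETS cores each, while the windows of Srsf1 and Srsf6 held none and carried only GC boxes.

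Intensities are given below as normalized log2 values, that is log2(intensity + 16) after quantile normalization within a tissue, and differences between codes as log2 differences ± standard error. A probe set is said to have risen or fallen where limma's moderated test, run over all 15838 probe sets tested in the tissue, gave a Benjamini-Hochberg adjusted p of at most 0.05. Within a set the lowest correlation between a pair of arrays was between 0.79 and 0.95 and the highest 0.99, and no arrays were identical. In bulk samples such as these, fewer cells of a type and less RNA per cell cannot be told apart. Calls among cell type markers are given here, to be read beside those of all probe sets. Of all probe sets 7.65%, 13.5% and 21.3% were higher in burn, LPS and TH blood, and 10.4%, 12.8% and 30.5% lower. In burn, LPS and TH spleen 9.65%, 2.39% and 10.7% were higher, and 7.92%, 0.909% and 16.7% lower. Neutrophil markers were higher in 8 of 15 probe sets in burn blood, 13 of 15 in LPS blood and 7 of 15 in TH blood (2 lower), B cell markers were lower in 13, 4 and 8 of 20 (higher in 0, 2 and 1), and monocyte and macrophage markers were higher in 6 of 16 in TH blood (2 lower). In burn spleen, monocyte and macrophage markers fell in 12 of 14 and rose in 1, erythroid markers fell in 4 of 11, proliferation markers in 9 of 21 and NK cell markers in 5 of 10, and T cell markers rose in 6 of 14. B cell markers fell there in 8 of 22, with none higher. In TH spleen, T cell markers fell in 9 of 14, B cell markers in 10 of 22 and NK cell markers in 6 of 10, with 2 NK cell probe sets higher. Neutrophil markers were higher in 7 of 15 in LPS spleen and 6 of 15 in TH spleen, and in TH blood erythroid markers fell in 7 of 11 and proliferation markers in 11 of 20, with 3 of the latter higher. Platelet markers rose in 6 of 10 in LPS blood and fell in 4 of 10 in TH blood. NK cell markers fell in 5 of 10 in burn blood, with none higher. Monocyte and macrophage markers fell in 6 of 14 in TH spleen and rose in 1. The part of these shifts in the results on splicing factors was not tested.

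In TH blood the splicing factors were mostly higher in x. Of 110 member probe sets 57 rose and 13 fell, against a background of 51.8% of all probe sets called, 21.3% higher and 30.5% lower. The members' median difference was 0.20, and that of all probe sets was -0.04. By role, 6 of 11 snRNP probe sets rose and 2 fell, 9 of 18 of SF3a and SF3b rose and 4 fell, 6 of 18 of the PRPF proteins rose and 2 fell, 14 of 23 of the SR proteins rose and 3 fell, and 22 of 40 of the hnRNPs rose and 2 fell. The medians were 0.49 for the snRNP probe sets, 0.34 for the hnRNPs, 0.20 for the SR proteins, 0.10 for SF3a and SF3b, and 0.02 for the PRPF proteins. A limit applies to both this set and LPS blood: the 3′ to 5′ signal ratio of the array's beta-actin control, a measure of RNA integrity and labelling, separated the codes completely. In TH blood its log2 value was 0.97 to 1.65 in x and 1.79 to 2.28 in c, so code and ratio cannot be told apart there, and with the ratio as a covariate none of the 110 members passed, while 0.164% of all probe sets did.

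**Figure D1:**
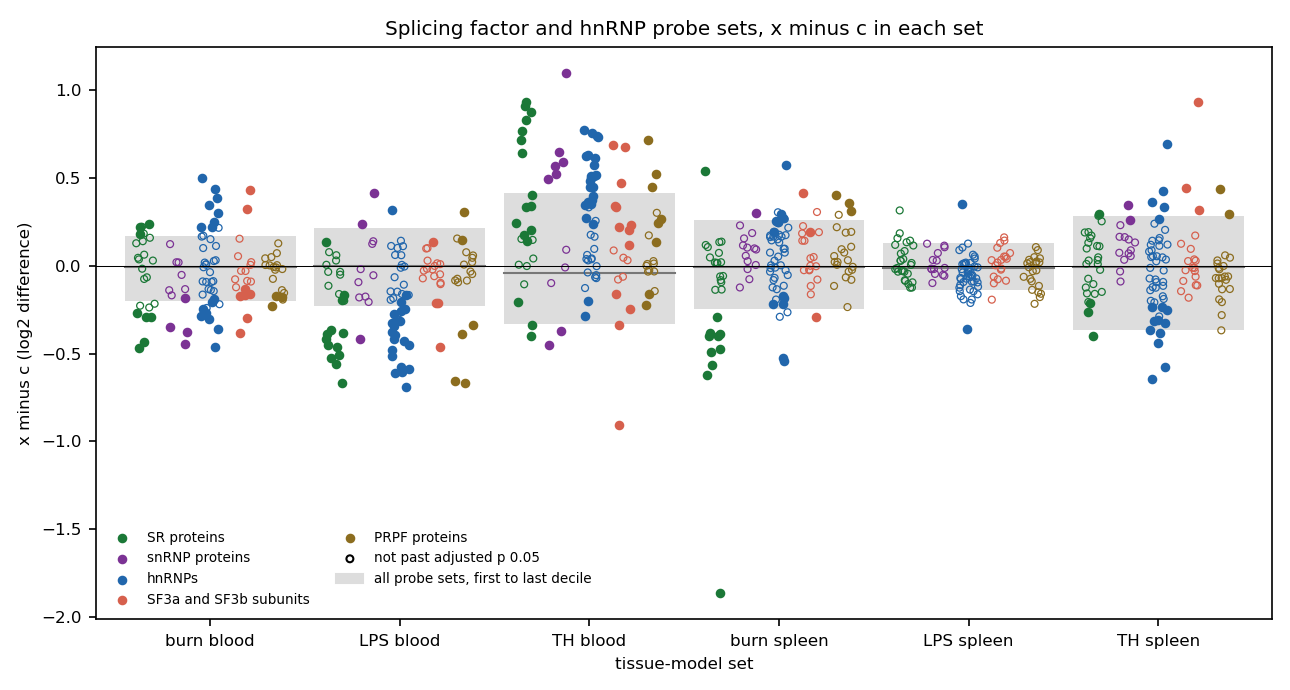
Log2 difference between x and c (vertical axis) of each member probe set in the 6 tissue-model sets (horizontal axis), coloured by role; filled points passed adjusted p 0.05, and the grey box spans the 10th to 90th percentile of all 15838 probe sets with their median as a line. In TH blood most filled points lie above 0 (57 of 70), in LPS blood most lie below it (41 of 48), and in LPS spleen only 2 points are filled.

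Snrpb2, which encodes the U2 snRNP protein B'', had the largest positive difference of any member. On its probe set 1452422_a_at the 11 c arrays of TH blood lay between 6.29 and 7.62 with a median of 6.79, and the 11 x arrays between 7.51 and 8.30 with a median of 8.01. The ranges overlapped narrowly, and the difference was 1.10 ± 0.13 (2.14-fold, limma adjusted p = 1.55e-06). The other tested Snrpb2 probe set, 1426613_a_at, rose by 0.52 ± 0.07 with no overlap between the codes. The Sm ring genes Snrpb, Snrpe and Snrpg rose too, by 0.59 ± 0.10, 0.57 ± 0.14 and, on 1 of the tested pair of Snrpg probe sets, 0.49 ± 0.13. The other Snrpg probe set differed by -0.01 ± 0.08. Snrpd3, also of the Sm ring, did not move as 1: of its 3 tested probe sets 1 rose (0.65) and 1 fell (-0.45). Snrpn, an Sm protein gene of an imprinted locus, fell by 0.37 on the log2 scale (± 0.07, adjusted p = 0.00023): its c arrays lay between 6.82 and 7.37 (median 7.05) and its x arrays between 6.46 and 6.93 (median 6.66). For Snrpc, of the U1 snRNP, the difference was -0.10 ± 0.05 and did not pass.

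Among the SR proteins of TH blood, Srsf1, which favours exon inclusion and proximal 5′ splice sites, stood at 6.21 to 7.36 (median 6.58) in c and 6.60 to 8.16 (median 7.62) in x on probe set 1428099_a_at, a difference of 0.93 ± 0.13 (1.91-fold, adjusted p = 1.18e-05). The lowest x array, E replicate 3, lay at 6.60 and the other 5 x arrays of letter E between 7.39 and 7.84. Of the 4 tested Srsf1 probe sets 3 rose and 1 fell, with differences from -0.34 to 0.93. Srsf11 1427269_at was 6.74 to 8.16 (median 7.32) in c and 7.75 to 8.83 (median 8.27) in x, 0.87 ± 0.15 higher (adjusted p = 7.02e-05). Srsf3, a small SR protein that also acts in mRNA export, gave 3 of the 5 member probe sets without overlap between codes. Those 5 were 4.55% of the 110 members, close to the 3.66% of all probe sets without overlap. On Srsf3 1454993_a_at all c arrays lay between 6.06 and 6.99 and all x arrays between 7.07 and 7.78, 0.83 ± 0.11 higher. The other Srsf3 probe sets without overlap rose by 0.77 ± 0.08 and 0.71 ± 0.09, while Srsf3 1438215_at did not pass. Srsf9, whose protein is close to that of Srsf1, rose by 0.64 ± 0.11, Srsf5 by 0.33 ± 0.13 and Srsf4 by 0.14 ± 0.05. Srsf6 rose on 1 of its 3 tested probe sets and fell on 2, with differences from -0.40 to 0.24.

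The hnRNPs of TH blood that rose included Hnrnpa2b1, an abundant RNA-binding protein of pre-mRNA packaging, on 4 of 4 tested probe sets (0.45 to 0.77), Hnrnpa1 on 2 of 2 (0.61 ± 0.10 and 0.51 ± 0.09) and Hnrnpr on 2 of 2 (0.63 ± 0.13 and 0.74 ± 0.24). Hnrnpa1 has many near-identical processed copies in the genome, so its signal may be shared. Hnrnph2, a G-run binding protein encoded on the X chromosome, lay at 7.61 to 8.90 (median 8.21) in c and 8.32 to 9.56 (median 9.05) in x, 0.75 ± 0.15 higher (adjusted p = 0.00024). Hnrnpd, known for binding AU-rich mRNA, rose by 0.63 ± 0.14. Hnrnpc 1418693_at fell by 0.28 on the log2 scale (± 0.07), and Hnrnpu, a nuclear matrix protein, rose on 1450849_at by 0.52 ± 0.08 and fell on 1434391_at by 0.20 (± 0.07). Of the PRPF genes, Prpf38b rose on both probe sets (0.45 ± 0.08 and 0.52 ± 0.12), and Prpf31 fell on 1448633_at by 0.23 (± 0.06).

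In LPS blood the direction was the reverse for most called members. Of 110 member probe sets 7 rose and 41 fell, where 26.3% of all probe sets were called, 13.5% higher and 12.8% lower. The members' median was -0.11, that of all probe sets 0.00. The fallen probe sets were mainly hnRNPs, 21 of 40 with 1 higher, and SR proteins, 12 of 23 with 1 higher. Of the other groups 4 of 18 PRPF probe sets fell and 2 rose, 3 of 18 of SF3a and SF3b fell and 1 rose, and 1 of 11 snRNP probe sets fell and 2 rose. The beta-actin log2 ratio was 0.94 to 1.27 in x and 1.49 to 1.65 in c, again without overlap, and with it as a covariate 17 members passed, 1 higher and 16 lower, beside 11.05% of all probe sets. In the first run of array title numbers alone 50 members were called (3 higher and 47 lower), beside 25.7% of all probe sets, and in the second run alone 4, beside 4.39%.

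Hnrnpab, which binds both RNA and DNA, had the largest fall in LPS blood on its probe set 1426114_at. The 12 c arrays lay between 12.70 and 13.08 (median 12.84) and the 10 x arrays between 11.88 and 12.41 (median 12.18). No x array reached a c array, and the difference was -0.69 ± 0.06 (1.61-fold lower, limma adjusted p = 1.08e-07). Of the 4 tested Hnrnpab probe sets only 2 fell, and the differences ran from -0.69 to 0.06. The other members without overlap between codes were 1 probe set each of Hnrnpa2b1 (-0.51 ± 0.10) and Hnrnpul1 (-0.61 ± 0.06) and 3 of Hnrnpu (-0.45 ± 0.06, -0.58 ± 0.08 and -0.32 ± 0.04). With Hnrnpab they were 6 of 110 members (5.45%), against 1.52% of all probe sets. Srsf1 1434972_x_at was 7.73 to 8.71 (median 8.28) in c and 6.74 to 8.10 (median 7.76) in x, -0.67 ± 0.16 (adjusted p = 0.00272). Srsf3 1454993_a_at was 7.50 to 8.10 in c and 6.79 to 7.66 in x, -0.56 ± 0.09, and Srsf11 fell on both probe sets, by 0.51 (± 0.15) and 0.36 (± 0.09). Srsf1 and Srsf3 each fell on only 2 of 4 tested probe sets. Prpf4b, a kinase that phosphorylates tri-snRNP proteins, fell on 1425498_at from 7.69 to 8.34 in c (median 8.16) to 6.87 to 8.06 in x (median 7.38), by 0.67 (± 0.11, adjusted p = 0.00015), and on 1455696_a_at by 0.66 (± 0.14, adjusted p = 0.00163). The 4 largest rises were Snrpn (0.41 ± 0.06; c 6.55 to 6.90, x 6.79 to 7.48), Hnrnph1 (0.32 ± 0.10), Prpf4b 1451732_at (0.30 ± 0.05; c 7.26 to 7.70, x 7.53 to 7.89) and Snrpd3 1422884_at (0.23 ± 0.08). Hnrnph1 and Snrpd3 rose with adjusted p of 0.0227 and 0.0234.

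LPS and TH blood share no arrays, so their calls can be set against each other. Each model had its own set of arrays, so a difference between models cannot be told apart from one between sets. Of the 32 member probe sets called in both, 28 were called in opposite directions, 27 of them lower in LPS and higher in TH blood and 1, Snrpn, the other way. That is 87.5% of the shared calls, against 1503 of the 2348 probe sets of all kinds called in both; the 32 are 66.7% of the LPS calls and 45.7% of the TH calls of the members. Tested directly, the x minus c difference of TH blood exceeded that of LPS blood in 64 member probe sets and was below it in 13, against 47.5% of all probe sets called, 20.7% above and 26.8% below. Srsf1 1434972_x_at had the largest such gap, 1.58. TH against burn blood gave 50 higher and 12 lower (43.3% of all called, 19.7% higher and 23.6% lower), and LPS against burn blood 14 higher and 23 lower (20.9% of all called, 11.4% higher and 9.41% lower). The control ratio separated the codes in both LPS and TH blood and was lower in x in both. With the ratio as a covariate 17 of 110 members passed in LPS blood and 0 in TH blood. Its part in the opposite calls was not tested.

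**Figure D2:**
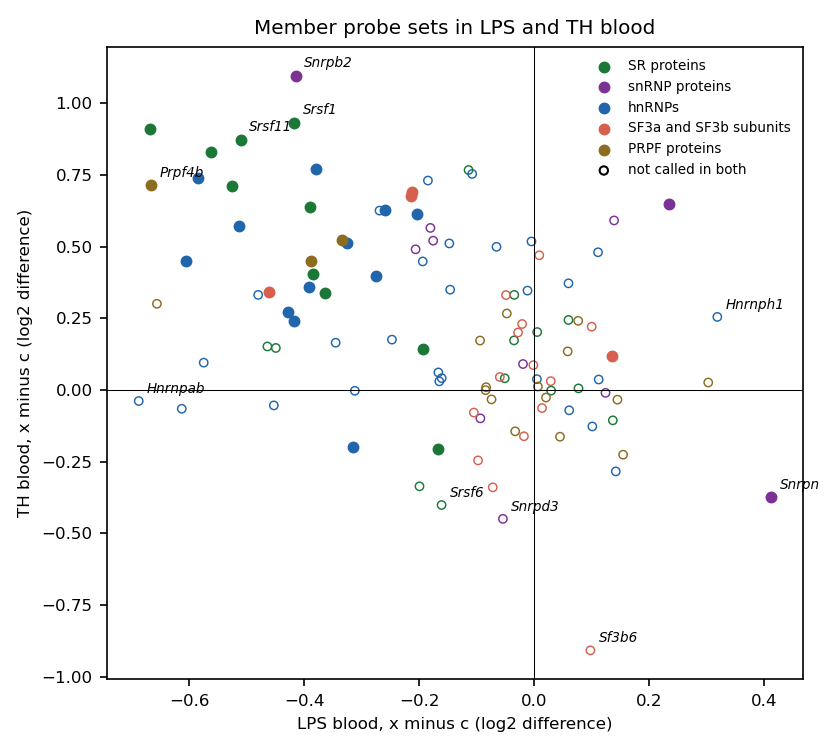
Log2 difference between x and c of the 110 member probe sets tested in blood, LPS blood on the horizontal and TH blood on the vertical axis, coloured by role; filled points were called in both sets. Of the 32 filled points 27 lie at the upper left, among them Snrpb2, Srsf1 and Prpf4b, and Snrpn lies alone at the lower right.

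In burn blood the members moved in both directions. Their median absolute difference was 0.15, against 0.16 in LPS blood and 0.26 in TH blood. Over all probe sets it was 0.08, 0.09 and 0.16 in burn, LPS and TH blood, the same order. Of 110 probe sets 13 rose and 26 fell, where 18.0% of all probe sets were called, 7.65% higher and 10.4% lower; the medians were -0.03 for members and -0.01 for all. With the values as deposited, that is without quantile normalization, 16 rose and 20 fell, and 16.95% of all probe sets were called. None of 11 snRNP and none of 18 PRPF probe sets rose, while 4 and 3 fell; SF3a and SF3b had 2 higher and 6 lower of 18, SR proteins 3 and 5 of 23, and hnRNPs 8 and 8 of 40. A pair of c arrays of letter E, replicates 4 and 5, stood apart with mean neutrophil marker levels of 10.9 and 10.7, against 8.38 to 9.07 in the other 4 arrays of their group. Without that pair 49 member probe sets were called, 15 higher and 34 lower, among them all 39 in the same direction, and the share called of all probe sets was 26.8%, up from 18.0%. Letter A alone gave 6 higher and 31 lower members, with 18.5% of all probe sets called, and letter E alone 7 higher and 0 lower, with 2.53%.

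Sf3b1, the SF3b subunit that contacts the branch point, gave 2 of the 3 member probe sets without overlap in burn blood. Those 3 were 2.73% of the 110 members, against 1.38% of all probe sets. On Sf3b1 1449138_at the 11 c arrays lay between 9.79 and 10.33 (median 10.11) and the 9 x arrays between 10.34 and 10.69 (median 10.51), 0.43 ± 0.06 higher (limma adjusted p = 8.8e-05). Sf3b1 1418562_at rose by 0.32 ± 0.06 while Sf3b1 1418561_at differed by 0.15 ± 0.05 and did not pass. Hnrnpdl, a relative of Hnrnpd, rose on 4 of its 5 tested probe sets, led by 1449039_a_at with 7.76 to 8.48 in c (median 8.05) and 8.39 to 8.82 in x (median 8.57), 0.50 ± 0.07 (adjusted p = 3.82e-05), and 1420093_s_at with 0.44 ± 0.10. Hnrnph2 was 9.02 to 9.86 in c and 9.72 to 10.02 in x, 0.39 ± 0.08 higher.

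Srsf9 fell most in burn blood: its c arrays lay between 8.30 and 8.91 (median 8.54), its x arrays between 7.98 and 8.31 (median 8.07), a difference of -0.47 ± 0.05 (adjusted p = 4.76e-06), and the ranges overlapped narrowly. Hnrnpu 1423050_s_at was 9.26 to 9.88 in c and 8.88 to 9.39 in x (-0.46 ± 0.07), Snrpd3 1422884_at 7.35 to 7.93 and 7.01 to 7.39 (-0.45 ± 0.06), and Srsf6 1448454_at 9.16 to 9.79 and 8.92 to 9.35 (-0.43 ± 0.08). The SF3b subunit Sf3b3 fell by 0.38 on the log2 scale (± 0.05) and the SF3a subunit Sf3a3 by 0.30 (± 0.06), so that these and Sf3b1 differed in direction within 1 complex. Snrpe and Snrpg 1448358_s_at, of the Sm ring, fell by 0.38 (± 0.08) and 0.35 (± 0.08).

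The contrast of the letters E and A called no member and nearly no other probe set. In E minus A, averaged over codes, 0 of 110 member probe sets passed in burn, LPS and TH blood, where 0, 0 and 0.0189% of all probe sets did (0.00631% higher and 0.0126% lower in TH blood); at an unadjusted p under 0.05 limma counted 10, 2 and 11 members, and 893, 839 and 1633 of all 15838 probe sets. No member passed for the interaction of letter and code either, where 0.0126% of all probe sets passed in burn blood and 0 in the others. In burn blood, however, 41 of 110 members had an unadjusted p under 0.05 for the interaction, against 1865 of all 15838, and the members' median interaction was 0.19, against -0.01 over all probe sets. In LPS and TH blood the counts were 2 and 14 members, against 1150 and 1243 of all 15838. The pair of c arrays that stand apart belongs to letter E; without it the members' median interaction in burn blood was 0.18 and 1 member passed.

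In spleen the calls were fewer and split by role. Burn spleen had 14 members higher and 17 lower of 129. Of all probe sets 17.6% were called, 9.65% higher and 7.92% lower, and the medians were 0.03 for members and -0.01 for all. As deposited, the values gave 18 members higher and 12 lower, and 17.1% of all probe sets were called. The SR proteins fell in 10 of 27 probe sets and rose in 1, and the PRPF proteins rose in 3 of 22 and fell in none. The hnRNPs rose in 7 of 47 and fell in 6, SF3a and SF3b rose in 2 of 19 and fell in 1, and the snRNP proteins rose in 1 of 14. The codes did not overlap in 24 members (18.6%), against 10.9% of all probe sets without overlap.

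Srsf6, an SR protein of exon inclusion, had the largest difference of all members in any set. On probe set 1416720_at the 5 c arrays of burn spleen read 11.41, 11.18, 11.07, 10.55 and 11.13 and the 6 x arrays lay between 8.93 and 9.37 with a median of 9.24. Every x array lay below every c array, a difference of -1.86 ± 0.12 (3.64-fold lower, limma adjusted p = 4.6e-08). The other Srsf6 probe sets did not follow it together: 1448454_at fell by 0.39 (± 0.07; c 10.51, 10.48, 10.52, 10.60 and 10.52, x 9.91 to 10.31), and 1416721_s_at rose by 0.54 ± 0.08 (c 9.67, 9.58, 9.56, 9.70 and 9.45, x 9.93 to 10.39). None of these 3 overlapped between codes. In LPS spleen 1416720_at of Srsf6 differed by 0.31 ± 0.19 and in TH spleen by 0.28 ± 0.22, neither past the threshold, and the differences from burn spleen were 2.18 and 2.15 on the log2 scale. Over all members, the x minus c difference of LPS spleen departed from that of burn spleen in 17 of 129 probe sets, 8 higher and 9 lower, where 9.10% of all probe sets did (4.10% higher and 4.99% lower). TH spleen departed from burn spleen in 19 (23.0% of all) and from LPS spleen in 16 (12.1% of all).

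**Figure D3:**
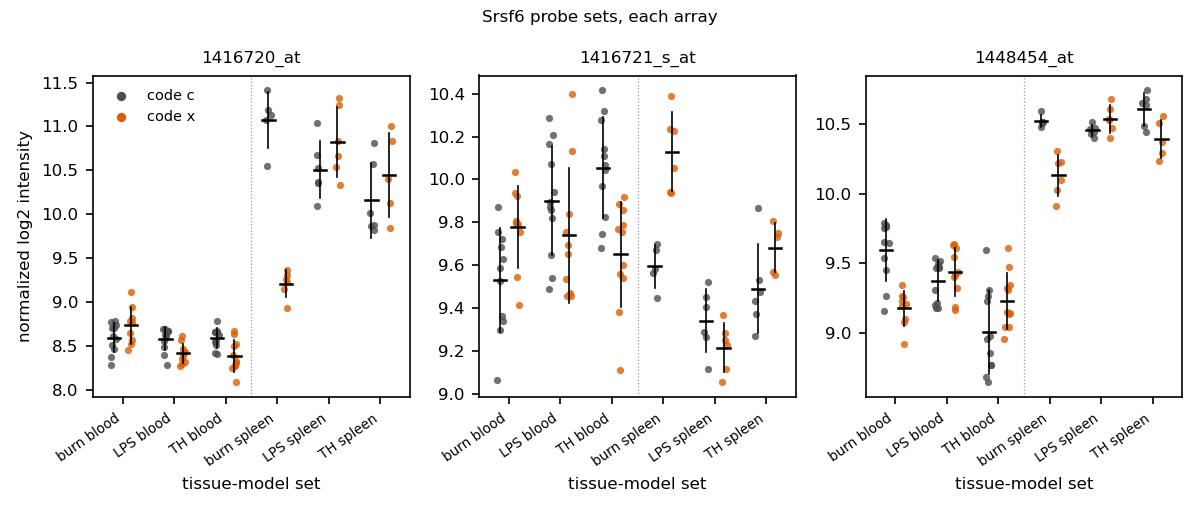
Normalized log2 intensity (vertical axis) of the 3 Srsf6 probe sets in each array of the 6 tissue-model sets (horizontal axis; c grey, x orange; bars give the mean ± SD of the arrays). In burn spleen 1416720_at drops to 8.93 to 9.37 in x from 10.55 to 11.41 in c, while 1416721_s_at lies higher in x.

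Srsf1 fell in burn spleen on 4 of 5 tested probe sets. On 1428099_a_at the c arrays read 9.40, 9.33, 9.06, 8.99 and 9.11 and the x arrays 8.05 to 8.80, -0.62 ± 0.12 (adjusted p = 0.00212), and on 1453722_s_at -0.56 ± 0.08; the fifth, 1428100_at, differed by 0.02 ± 0.08. Hnrnpul2, a relative of Hnrnpu, read 9.42, 9.38, 9.44, 9.40 and 9.42 in c and 8.58 to 9.0 in x on 1434551_at (-0.54 ± 0.08). Hnrnpdl 1420093_s_at rose from 8.74, 8.66, 8.69, 8.80 and 8.71 in c to 9.18 to 9.43 in x (0.57 ± 0.06, adjusted p = 1.47e-05). Prpf8, the core protein of the catalytic centre, rose from 8.55, 8.86, 8.62, 8.84 and 8.73 to 9.0 to 9.44 (0.40 ± 0.09), and Sf3b1 1418561_at from 7.38, 7.03, 6.97, 7.33 and 7.28 to 7.48 to 7.66 (0.41 ± 0.08). Mean marker levels moved beside these: erythroid markers were 7.31 to 7.68 in c and 6.68 to 6.92 in x, T cell markers 7.96 to 8.47 in c and 8.53 to 8.84 in x, and proliferation markers 7.52 to 7.72 in c and 7.26 to 7.50 in x. Their part in the result was not tested.

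In LPS spleen 2 of 129 members passed, where 3.30% of all probe sets did (2.39% higher and 0.909% lower). Hnrnph2 rose from 9.40 to 9.73 in the 6 c arrays (median 9.68) to 9.89 to 10.06 in the 6 x arrays (median 9.98), 0.35 ± 0.06 (limma adjusted p = 0.00417). Hnrnpdl 1420093_s_at fell from 8.49 to 8.79 to 8.22 to 8.46, by 0.36 (± 0.07, adjusted p = 0.00728). Both were without overlap, as were 2.75% of all probe sets, and at an unadjusted p under 0.05 there were 6 of 129 members and 1783 of all 15838 probe sets. The medians were -0.02 for members and for all probe sets.

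In TH spleen 13 members rose and 14 fell of 129, a share of calls below the 27.4% of all probe sets (10.7% higher and 16.7% lower), with medians of 0.00 and -0.01. Most of the falls were hnRNPs, 11 of 47 with 5 higher; the SR proteins had 1 higher and 3 lower of 27, and none of the other groups fell: 3 of 19 of SF3a and SF3b, 2 of 22 of the PRPF and 2 of 14 of the snRNP probe sets rose. Codes did not overlap in 17 members (13.2%), against 17.1% of all probe sets. Sf3b5, a small SF3b subunit, had the largest difference: its x arrays read 9.11, 8.42, 8.64, 8.84 and 8.86, and its c arrays lay between 7.21 and 8.25 (median 7.93), 0.93 ± 0.16 (limma adjusted p = 0.000591). Hnrnph2 read 10.20, 9.99, 10.22, 10.20 and 10.16 in x and 9.34 to 9.56 in c (0.69 ± 0.07, adjusted p = 2.55e-06). Sf3b3 and Prpf31 1448633_at rose by 0.44 ± 0.08 each, again without overlap.

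Hnrnpul2 1434551_at fell most in TH spleen, from 9.04 to 9.39 in c to 8.55, 8.71, 8.81, 8.25 and 8.45 in x (-0.65 ± 0.10, adjusted p = 0.000262). Hnrnpu 1423050_s_at read 9.87, 10.13, 10.09, 9.73 and 9.79 in x and 10.39 to 10.62 in c (-0.58 ± 0.08). Hnrnpll, the regulator of CD45 splicing in T cells, fell on both probe sets, by 0.44 (± 0.08) on 1425255_s_at (x 7.61, 7.58, 7.74, 7.38 and 7.56, c 7.86 to 8.10) and by 0.31 (± 0.08) on 1427144_at. Srsf10 1449121_at fell by 0.40 (± 0.12, adjusted p = 0.0185); without the x array of replicate 4 its adjusted p was 0.0517. T cell marker levels were 8.25 to 8.50 in c and 7.76 to 8.04 in x, B cell marker levels 9.21 to 9.50 and 8.91 to 9.23, and their part in these falls was not tested. Burn and TH spleen, which share no arrays, had 8 member probe sets called in both (25.8% of the burn and 29.6% of the TH calls), none in opposite directions, against 29.0% opposite over all probe sets called in both.

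Across the 6 sets 51 of the 54 genes had a call in at least 1 set, and Hnrnpl, Prpf40b and Snrpc had none. By gene, 32 were higher in at least 1 set and lower in at least 1 other or the same. These counts across sets were not made over all genes, so they are not read as particular to the members. Hnrnph2 and Hnrnpdl had a probe set that rose in 4 sets. For Hnrnph2, with its single probe set, these were burn blood, TH blood, LPS spleen and TH spleen, with -0.11 ± 0.17 in LPS blood and 0.16 ± 0.07 in burn spleen. Hnrnpdl rose in burn blood, TH blood, burn spleen and TH spleen and had probe sets that fell in LPS blood, LPS spleen and TH spleen. Hnrnpu fell on at least 1 probe set in all sets but LPS spleen, Srsf6 likewise in 5 sets, and Srsf1 in 4 (the blood sets and burn spleen); each of these 3 had also risen on another probe set in at least 1 set.

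**Figure D4:**
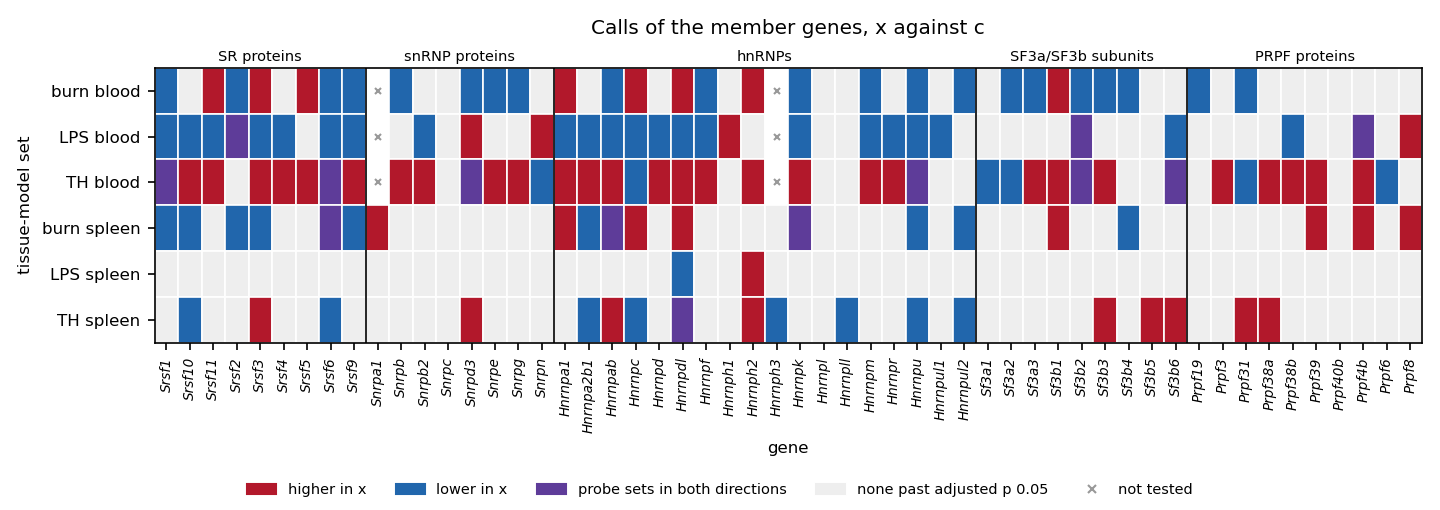
Calls of the 54 member genes (horizontal axis, ordered by role) in the 6 sets (vertical axis): red, at least 1 probe set higher in x; blue, lower; purple, probe sets in both directions; grey, none past adjusted p 0.05; crosses, not tested. The TH blood row is mostly red, the LPS blood row mostly blue among SR proteins and hnRNPs, and LPS spleen has 2 coloured cells.

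Probe sets of 1 gene were compared by testing the brightest tested probe set against each other one, which gave 58 pairs from 30 genes in blood and 75 pairs from 35 genes in spleen. Their x minus c differences had the same sign in 39, 41 and 37 of 58 pairs in burn, LPS and TH blood, and in 49, 50 and 47 of 75 in burn, LPS and TH spleen. These shares, 67.2%, 70.7% and 63.8% in blood and 65.3%, 66.7% and 62.7% in spleen, stood beside 64.2%, 54.2% and 62.9% and 63.9%, 63.2% and 69.0% of all pairs on the array. The difference itself departed between the probe sets of a pair in 12 of 58 pairs in burn blood (15.4% of all pairs on the array), 27 in LPS blood (38.3%), 31 in TH blood (49.4%), 14 of 75 in burn spleen (11.5%), 0 in LPS spleen (0.632%) and 10 in TH spleen (14.8%). In LPS spleen limma gave 30 such pairs over all genes. Of the 30 genes with several tested probe sets, all of them moved together past the threshold in 3 genes in burn blood, 2 in LPS blood and 6 in TH blood. That count was not made over all genes, so it is not read as good or poor agreement.

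Opposite calls within a pair occurred 7 times in TH blood, 2 times in LPS blood and 2 times in burn spleen, against 336 and 154 of all 4557 pairs in TH and LPS blood and 24 of all 4747 in burn spleen. Sf3b6, the SF3b protein that touches the branch point adenosine, gave the widest one. Its probe set 1417055_at stood at 10.00 to 10.76 (median 10.40) in the c arrays of TH blood and at 9.24 to 9.68 (median 9.55) in the x arrays, without overlap, -0.91 ± 0.08 (1.88-fold lower, limma adjusted p = 7e-08). Its probe set 1417054_a_at stood at 8.51 to 9.31 (median 8.74) in c and 9.02 to 9.78 (median 9.59) in x, 0.69 ± 0.09 higher (adjusted p = 5.87e-06), and 1436681_x_at at 8.15 to 9.06 and 8.29 to 9.53, 0.68 ± 0.12 higher. The gap of 1.60 ± 0.14 between the first pair had an adjusted p of 1.95e-08.

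Snrpd3, an Sm ring protein, fell in TH blood on 1422885_at by 0.45 (± 0.07; c 8.09 to 8.76, x 7.74 to 8.20) and rose on 1422884_at by 0.65 ± 0.10 (c 6.03 to 6.98, x 6.66 to 7.44), while 1449629_s_at differed by 0.09 ± 0.04. The gap between the opposite pair was -1.10 ± 0.09 (adjusted p = 8.63e-09). For Srsf1 the brightest probe set, 1453722_s_at, fell by 0.34 (± 0.07; c 8.34 to 9.03, x 8.11 to 8.54), against rises of 0.93, 0.91 and 0.20 on the other 3. The remaining opposite pairs in TH blood were Srsf6 (1416721_s_at -0.40 ± 0.11, 1448454_at 0.24 ± 0.10) and Sf3b2 (1433461_at 0.20 ± 0.08, 1456040_at -0.25 ± 0.04). In LPS blood they were Prpf4b (1425498_at -0.67 ± 0.11, 1451732_at 0.30 ± 0.05) and Srsf2 (1427504_s_at -0.45 ± 0.07, 1427816_at 0.14 ± 0.05), and in burn spleen Hnrnpk (1423684_at 0.30 ± 0.06, 1448176_a_at -0.17 ± 0.05) and Srsf6. Beyond the pairs with the brightest probe set, calls in both directions were also seen for Sf3b2 in LPS blood, Hnrnpu in TH blood, Hnrnpab in burn spleen and Hnrnpdl in TH spleen.

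**Figure D5:**
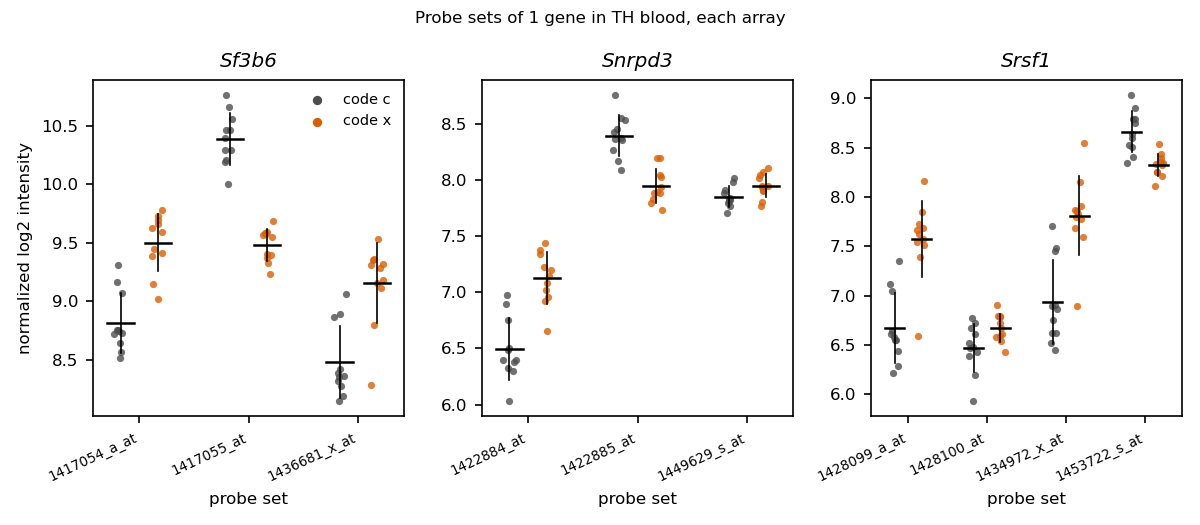
Normalized log2 intensity (vertical axis) of the tested probe sets (horizontal axis) of Sf3b6, Snrpd3 and Srsf1 in each TH blood array (c grey, x orange; bars give the mean ± SD of 11 arrays). In each gene 1 probe set lies lower in x and at least 1 other higher; for Sf3b6 the lower one is 1417055_at with 9.24 to 9.68 in x and 10.00 to 10.76 in c.

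The type of probe set moved with the counts. On this array a suffix a_at marks a probe set that matches several transcripts of 1 gene, and x_at one with probes that can match other genes. In LPS blood 10 of 13 member x_at probe sets and 12 of 23 a_at fell, against 15 of 61 with the plain suffix; over all probe sets 31.1%, 13.3% and 10.5% of these types fell. In TH blood 9 of 13 x_at, 17 of 23 a_at and 28 of 61 plain member probe sets rose, against 34.1%, 24.4% and 18.8% of all. The part of the suffix in the members' counts was not tested. With the brightest probe set of each gene alone, TH blood had 28 higher and 6 lower of 52 genes, LPS blood 3 and 17, burn blood 6 and 15, burn spleen 3 and 5 of 54, LPS spleen 1 and 0, and TH spleen 5 and 6. Over all genes treated this way, 52.8%, 25.6% and 17.5% were called in TH, LPS and burn blood, and 17.8%, 3.80% and 28.3% in burn, LPS and TH spleen.

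Other genes of the splicing pathway, from lists of names outside the members, are given by their counts. These lists too were chosen with earlier results of these data known, so they are not independent of the data. In TH blood, where 21.3% of all probe sets rose and 30.5% fell, the spliceosome helicases and catalytic complex rose in 22 of 37 probe sets and fell in 3 (median 0.21), exon junction and mRNA export genes rose in 10 of 17 and fell in 4 (0.20), 3′ splice site and SR-related genes rose in 20 of 50 and fell in 6 (0.16), other RNA-binding regulators rose in 25 of 66 and fell in 13 (0.11), and snRNP proteins outside the members rose in 8 of 24 and fell in 4 (0.09). The snRNP assembly genes had 4 higher and 4 lower of 13, and the SR protein kinases 3 and 2 of 12. Named by smallest p, Dhx9 and Ptbp1, an RNA helicase and the polypyrimidine tract binding protein, rose by 0.70 ± 0.08 and 0.69 ± 0.07, U2af1, the small subunit of the 3′ splice site factor, by 0.59 ± 0.06, Rbm8a, of the exon junction complex, by 0.63 ± 0.08, and Bud31 by 0.70 ± 0.08.

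In LPS blood, where 13.5% of all probe sets rose and 12.8% fell, 18 of 66 other regulators fell and 4 rose, 15 of 50 SR-related probe sets fell and 6 rose, 11 of 37 of the helicases fell and 6 rose, 7 of 24 of the snRNP proteins fell and 2 rose, and 6 of 17 of exon junction and export fell with none higher. The SR protein kinases had 2 in each direction of 12, and snRNP assembly 3 higher and 4 lower of 13. Celf1 and Ddx5 fell by 0.71 (± 0.10) and 0.62 (± 0.09), and Xab2 rose by 0.63 ± 0.07. In burn blood, where 7.65% of all probe sets rose and 10.4% fell, 16 of 66 regulators fell and 5 rose, with Tardbp, the gene of TDP-43, at -0.91 ± 0.07 and Sfpq at -0.74 ± 0.06, while 4 of 12 SR protein kinase probe sets rose and none fell, led by Clk1 with 0.58 ± 0.06. SR-related genes there had 14 higher and 6 lower of 50, snRNP assembly 0 and 6 of 13, snRNP proteins outside the members 0 and 4 of 24, helicases 0 and 3 of 37, and exon junction and export 1 and 1 of 17.

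In burn spleen, where 9.65% of all probe sets rose and 7.92% fell, 10 of 42 helicase and catalytic complex probe sets rose and none fell, the kinases had 4 of 12 higher and none lower, and the other regulators had 6 higher and 10 lower of 70, with Tardbp at -1.09 ± 0.10 and Cirbp, the cold-inducible RNA-binding protein, at 1.09 ± 0.12. SR-related genes had 5 higher and 7 lower of 61, snRNP proteins outside the members 1 and 1 of 25, exon junction and export 1 and 1 of 18, and snRNP assembly no calls of 17. In TH spleen, where 10.7% of all probe sets rose and 16.7% fell, 17 of 70 regulators fell and 3 rose (Celf2 -0.39 ± 0.05, Syncrip 0.80 ± 0.13), 5 of 12 kinase probe sets fell and none rose (Clk1 -0.48 ± 0.09), and 8 of 61 SR-related probe sets fell and 2 rose (Luc7l3 -0.66 ± 0.13). The helicases there had 1 higher and 2 lower of 42, exon junction and export 0 and 3 of 18, snRNP proteins outside the members 2 and 3 of 25, and snRNP assembly 2 and 0 of 17. In LPS spleen none of these 7 lists had a call.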

How the data were processed

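The authors deposited linear intensities of a 1-colour Affymetrix mouse array, 1 value per probe set and array; their summary method and scaling are not given in the sources used here, and the number of arrays limits the precision. Gene symbols came from the platform annotation. After 64 control probe sets were left out, values were taken as log2(intensity + 16), quantile normalized within a tissue, and the dimmest probe sets, up to the 30th percentile of means, were dropped. Each set was fitted alone with limma 3.58.1 (trend; R 4.3.3), 1 term per group, averaging x minus c over letters in blood; p-values were adjusted (Benjamini-Hochberg) over all probe sets tested, and called at 0.05. Pairs of probe sets of 1 gene were fitted as differences of log2 values. Sets were compared in 1 fit per tissue. Fits were tested on simulated data.

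The members and gene lists were chosen with earlier results of these data known. Named were the 4 largest differences in each direction per set, genes called the same way in 4 or more sets, genes called in both directions, and the leading genes of each list. Alternatives changed the pseudocount, normalization, filter, weights, covariates and arrays.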

Additional observations from a re-analysis of the deposited data

Results flagged for a closer look

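The x minus c differences of the members differed between the sets of the injury models by a direct test. Each model had its own set of arrays, with title numbers of its own, so model and set cannot be told apart. In spleen the material differed as well, leukocytes in the burn set and spleen in the others. In blood 37 member probe sets differed between LPS and burn, 62 between TH and burn, and 77 between TH and LPS, that is 33.6%, 56.4% and 70.0% of members beside 20.9%, 43.3% and 47.5% of all probe sets. In spleen the counts were 17 between LPS and burn, 19 between TH and burn, and 16 between TH and LPS, 13.2%, 14.7% and 12.4% of members beside 9.10%, 23.0% and 12.1% of all probe sets, so that the share of members was below that of all probe sets for TH and burn and close to it for TH and LPS. The largest of these differences were -0.79 for Hnrnpab 1426114_at (LPS minus burn, blood), 1.18 and 1.58 for Srsf1 1434972_x_at (TH minus burn and TH minus LPS, blood), 2.18 and 2.15 for Srsf6 1416720_at (LPS minus burn and TH minus burn, spleen) and 0.90 for Sf3b5 1451185_at (TH minus LPS, spleen).

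Of 132 groups of 4 to 6 arrays examined for the named probe sets, 9 held an array far from the others; chance gives about 1 in 20. In burn blood, letter A of code c, Hnrnph2 stood at 9.32 in replicate 4 (others 9.48 to 9.54) and Snrpd3 1422884_at at 7.93 in replicate 2 (others 7.73 to 7.76). In LPS blood, Snrpn stood at 6.90 in replicate 4 of c, letter E (others 6.61 to 6.70), Prpf4b 1455696_a_at at 7.07 in replicate 6 of c, letter A (others 7.41 to 7.57), and Srsf1 1434972_x_at at 6.74 in replicate 2 of x, letter A (others 7.75 to 8.10). In TH blood, Srsf1 1428099_a_at stood at 6.60 in replicate 3 of x, letter E (others 7.39 to 7.84), and Srsf1 1434972_x_at at 8.55 in replicate 4 of x, letter A (others 7.69 to 7.91). In burn spleen, Prpf8 stood at 9.44 in replicate 1 of x (others 9.0 to 9.14) and Srsf1 1453722_s_at at 9.21 in replicate 1 of c (others 8.84 to 8.94).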

How the results depend on the processing

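No paired analysis was possible because the labels give no replicate numbers shared between groups. A run of consecutive title numbers, entered as a block where a set held a pair of runs, kept the direction and the side of the threshold of all 26 named probe sets it was fitted to and left all 14 counts within 1.5 times, with 39, 48 and 73 calls in burn, LPS and TH blood and 2 in LPS spleen. In these block fits 17.9%, 27.0%, 51.8% and 3.39% of all probe sets were called. Pseudocounts of 1 and 64, other filters on low values and quantile normalization within each set left all counts of members within 1.5 times. With the beta-actin ratio as a covariate, LPS blood had 17 calls and 10 differing pairs and TH blood 0 and 0; Snrpd3 1422884_at turned to -0.39 in LPS blood (adjusted p = 0.222) and Srsf6 1416721_s_at to 0.11 in TH blood (adjusted p = 0.897), and the cause was not tested. With the brightest probe set of each gene, which leaves fewer probe sets, the calls were 21, 20 and 34 in burn, LPS and TH blood and 8, 1 and 11 in spleen, and the differences between models were 15 (LPS minus burn), 28 (TH minus burn) and 37 (TH minus LPS) in blood and 8, 8 and 9 in spleen. Letter A alone, with fewer arrays, gave 14 calls in LPS blood, beside 7.04% of all probe sets. It gave 12 pairs in LPS blood and 7 pairs in burn blood. Letter E alone gave 7, 23 and 26 calls in burn, LPS and TH blood, beside 2.53%, 15.8% and 21.5% of all probe sets. In TH blood these 26 of 110 members were close to the share of all probe sets. Differing pairs with letter E alone were 3 and 12 in burn and TH blood. The first run of title numbers alone gave 25, 20 and 1 calls in burn blood, TH blood and LPS spleen. Beside these, 11.1%, 10.3% and 1.18% of all probe sets were called. Alone, the second run gave 0, 4, 67 and 0 calls in burn, LPS and TH blood and LPS spleen. Of all probe sets 0.448%, 4.39%, 43.8% and 1.26% were called there. The values as deposited gave 1 call for the burn blood interaction and 6 pairs in TH spleen. Array weights gave 1 call each for E minus A and the interaction in LPS blood and 20 pairs in burn blood; 1 fit over all blood arrays gave 1 call for E minus A in TH blood. Without the pair of burn blood arrays that stand apart the interaction had 1 call.

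Leaving out 1 array at a time gave 32 to 43 calls in burn blood, 40 to 52 in LPS blood, 63 to 74 in TH blood, 25 to 30 in burn spleen and 17 to 29 in TH spleen, with 2 throughout in LPS spleen. The lowest in TH spleen came without replicate 4 of x, which also gave 6 pairs (6 to 10 in all) and 10 differences between TH and LPS spleen (10 to 19). Pairs ranged from 8 to 12 in burn spleen, with 8 without replicate 1 of c. Differences between LPS and burn spleen ranged from 11, without replicate 1 of burn c, to 19. The burn blood interaction had 0 to 1 calls, with 1 without replicate 5 of c, letter E. These arrays have no read depth; their number limits the precision.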
